A study of Mus musculus with 8 samples.

Results

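The genes described are 9 parts of the machinery that makes microRNAs and carries out silencing. They were chosen by name, though with earlier results of these data known. They are Drosha and Dgcr8 of the nuclear processing step, the export receptor Xpo5, Dicer1 with its partners Tarbp2 and Prkra, and the silencing scaffolds Tnrc6a, Tnrc6b and Tnrc6c. All 9 were found among the 23433 symbols of the count files, and all 9 were among the 14176 genes that passed the filter on low counts. RNA came from newborn mouse skin at P0.5, soon after birth, in pups of a mixed strain, as 8 libraries from 4 pups. Transgenic pups 4 and 6 carried pTRE2-200bcl, a doxycycline-responsive miR-200 construct, together with K14rtTA, which places the doxycycline-dependent activator under the keratin 14 promoter. Control pup 3 carried K14rtTA without the construct, and control pup 5 carried pTRE2-200bcl without the activator. Neither control held both alleles, and the control genotypes differed from each other. All dams ate doxycycline chow while pregnant, so controls were exposed to the drug as well. Each pup gave a hair germ (HG) and an interfollicular epidermis (IFE) library. Both were sorted as K14RFP+ cells high for alpha6 integrin, with high P-cadherin for HG, the bud of the forming follicle, and low P-cadherin for IFE, the epithelium between follicles. Each of the 4 groups therefore had 2 libraries, from separate pups.

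In the canonical pathway the nuclease Drosha and its RNA-binding partner Dgcr8 cut a long primary transcript into a hairpin, Xpo5 carries the hairpin out of the nucleus, and Dicer1 cuts it to a short duplex. One strand is loaded into an Argonaute protein, which pairs with messages through the seed and recruits a Tnrc6 protein. Tnrc6 proteins in turn bring deadenylases and decapping factors to the message. In mouse skin, loss of Dicer1 or Dgcr8 from the epithelium is known to disturb hair follicle growth, and miR-200 microRNAs are abundant in epithelial cells.

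The mature miR-200 family is shown first, because the messages of the machinery were searched for matches to its seeds. Capitals mark the seed, bases 2 to 8 counted from the 5′ end, in the mature 3p sequences from RefSeq (GRCm38.p6). All 5 lie on minus strands, miR-200b, miR-200a and miR-429 on chromosome 4 and miR-200c and miR-141 on chromosome 6. Their positions are chr4:156055685-156055706, chr4:156054911-156054932 and chr4:156053916-156053937, then chr6:124718324-124718346 and chr6:124717917-124717938.
miR-200b-3p: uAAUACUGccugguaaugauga
miR-200c-3p: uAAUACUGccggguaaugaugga
miR-429-3p: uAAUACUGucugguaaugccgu
miR-200a-3p: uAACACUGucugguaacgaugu
miR-141-3p: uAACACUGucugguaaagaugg
The first 3 share 1 seed and the last 2 share another, which differ at a single base. The construct's name does not say more of its content than 200bcl, and mature microRNAs were not measured.

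The longest annotated 3′ UTR of each gene (GENCODE M21, GRCm38) was searched on its transcript strand for CAGTATT, which pairs with the seed of miR-200b, miR-200c and miR-429, and for CAGTGTT, which pairs with that of miR-200a and miR-141. The 2 motifs cannot overlap each other. Of the 9 genes, 3 held at least 1 match, against 30.3% of the 12651 tested genes with an annotated 3′ UTR (15.5% for CAGTATT and 20.9% for CAGTGTT). Dicer1 and Xpo5 each had 1 CAGTGTT, and Tnrc6b had 1 CAGTATT and 4 CAGTGTT in a 3′ UTR of 11609 bases. The other 6 genes had no match in windows of 169 bases (Drosha) to 2588 bases (Tnrc6c), against a median of 1204 bases over the genes searched. The windows below carry the Dicer1 and Xpo5 matches and the only place where Tnrc6b has both kinds close together, and the capitals mark the match.
Dicer1, chr12:104690628-104690657, minus strand: cacgccacaggtctgtactaggCAGTGTTg
Xpo5, chr17:46243381-46243410, plus strand: ctgcaggttgtaaaggtgagctCAGTGTTg
Tnrc6b, chr15:80937905-80937934, plus strand: aggattcttgatactggccatgCAGTGTTa
Tnrc6b, chr15:80937944-80937973, plus strand: agccatggaagctcacaggctcCAGTATTc
A match is a run of letters and was not tested as a binding site.

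Counts assigned to genes were 7109871 to 14039583 per library. The precursor of ribosomal RNA, Rn45s, took 30.6% of them in control IFE pup 3 and 29.0% in transgenic IFE pup 4, so results for the IFE are also given without these libraries where that matters. Summed hair germ markers were 1006 to 1383 CPM (edgeR's library-scaled counts, with TMM factors) in transgenic HG and 939 to 1108 CPM in control HG, against 545 to 641 CPM in transgenic IFE and 596 to 797 CPM in control IFE. All 7 had fitted values above 0 in HG against IFE. At an edgeR adjusted p under 0.05, 0 were called in control and 3 in transgenic pups, against 0.00705% and 0.882% of all genes called higher. In transgenic against control HG, 5 of the 7 lay above 0 and 2 below, with 0 called. The 15 immune markers summed to 275 to 472 CPM in transgenic HG against 83.1 to 177 CPM in control HG. All 15 had fitted values above 0 there, and 3 were called higher (edgeR adjusted p under 0.05), against 0.762% of all genes. In IFE they summed to 3222 to 4190 CPM in transgenic pups against 143 to 269 CPM in controls. There 15 of 15 were called higher, against 4.99% of all genes. The 10 melanocyte markers summed to 154 to 194 CPM in transgenic HG against 32.8 CPM in both control HG libraries (2 markers at 0). In IFE they summed to 144 to 166 CPM in transgenic pups against 21.3 to 24.4 CPM in controls (4 at 0). Of these 10, 4 were called higher in HG and 5 in IFE, against the same shares. Gpnmb (68.7 and 41.3 CPM in pups 4 and 6) and Mitf (54.1 and 43.2 CPM) were the largest parts of the transgenic IFE sums. In transgenic HG against transgenic IFE, Gpnmb and Mitf had fitted log2 values below 0 (-1.66 and -1.45), as did all 15 immune markers. The other 8 melanocyte markers lay above 0 there. The 7 keratinocyte markers summed to 16639 to 20540 CPM in transgenic HG against 25284 to 29725 CPM in control HG. In IFE they summed to 15999 to 16248 CPM in transgenic pups against 32913 to 34965 CPM in controls. Of these 7, 0 were called lower in HG and 5 in IFE, against 0.19% and 1.35% of all genes. Suprabasal markers summed to 999.9 to 2560 CPM over transgenic libraries and 994 to 4405 CPM over control libraries, and fibroblast markers to 40.5 to 123 CPM and 82.2 to 344 CPM. Merkel cell and endothelial markers stayed at or below 20.1 CPM in every library. In bulk samples fewer cells of a type and less RNA per cell cannot be told apart, and the part of these markers in the results below was not tested.

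The load of the transgene was read from miR200primary, a feature that the submitters counted beside the annotated genes. It had 526 and 797 CPM in transgenic HG (pups 4 and 6), against 0.176 and 1.40 CPM in control HG (pups 3 and 5), where the counts were only 2 and 21. Its IFE level was 607 and 714 CPM in transgenic pups, against 3.83 and 2.63 CPM in controls. Every transgenic library thus lay far above every control library, and the feature was called higher in both populations (edgeR adjusted p = 2.56e-06 in HG and 5.04e-06 in IFE). Among transgenic pups, pup 6 had the higher load in both populations.

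None of the 9 genes was called between transgenic and control pups in either population at an edgeR adjusted p under 0.05. The background was 0.952% of the 14176 genes in HG (135 genes, 0.762% higher and 0.19% lower) and 6.34% in IFE (899 genes, 4.99% higher and 1.35% lower). With library size as the only scaling, 868 of 910 genes called in IFE were higher, against 707 of 899 with TMM. At an unadjusted p under 0.05 there was 1 of 9 in HG, Drosha, against 17.1% of all genes, and 0 of 9 in IFE, against 17.3%. Neither DESeq2 nor limma-voom called any of the 9. The fitted values of 7 of the 9 lay below 0 in HG, with a median log2 fold change of -0.30, and 7 of 9 in IFE, with a median of -0.30. Over all genes the medians were 0.04 in HG and -0.01 in IFE, with 47.2% and 50.6% below 0. Over the 7365 genes whose log2 CPM averaged 4 or more the medians were -0.07 and -0.13, with 56.6% and 62.1% below 0. The median of the 9 in IFE was -0.15 with library size as the only scaling, which moved the median of all genes to 0.15, and -0.0021 without control IFE pup 3. In HG it was -0.17 without control pup 3 and -0.18 without transgenic pup 6. Each library pair of a pup enters both contrasts, so the HG and IFE values are not independent.

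**Figure D1:**
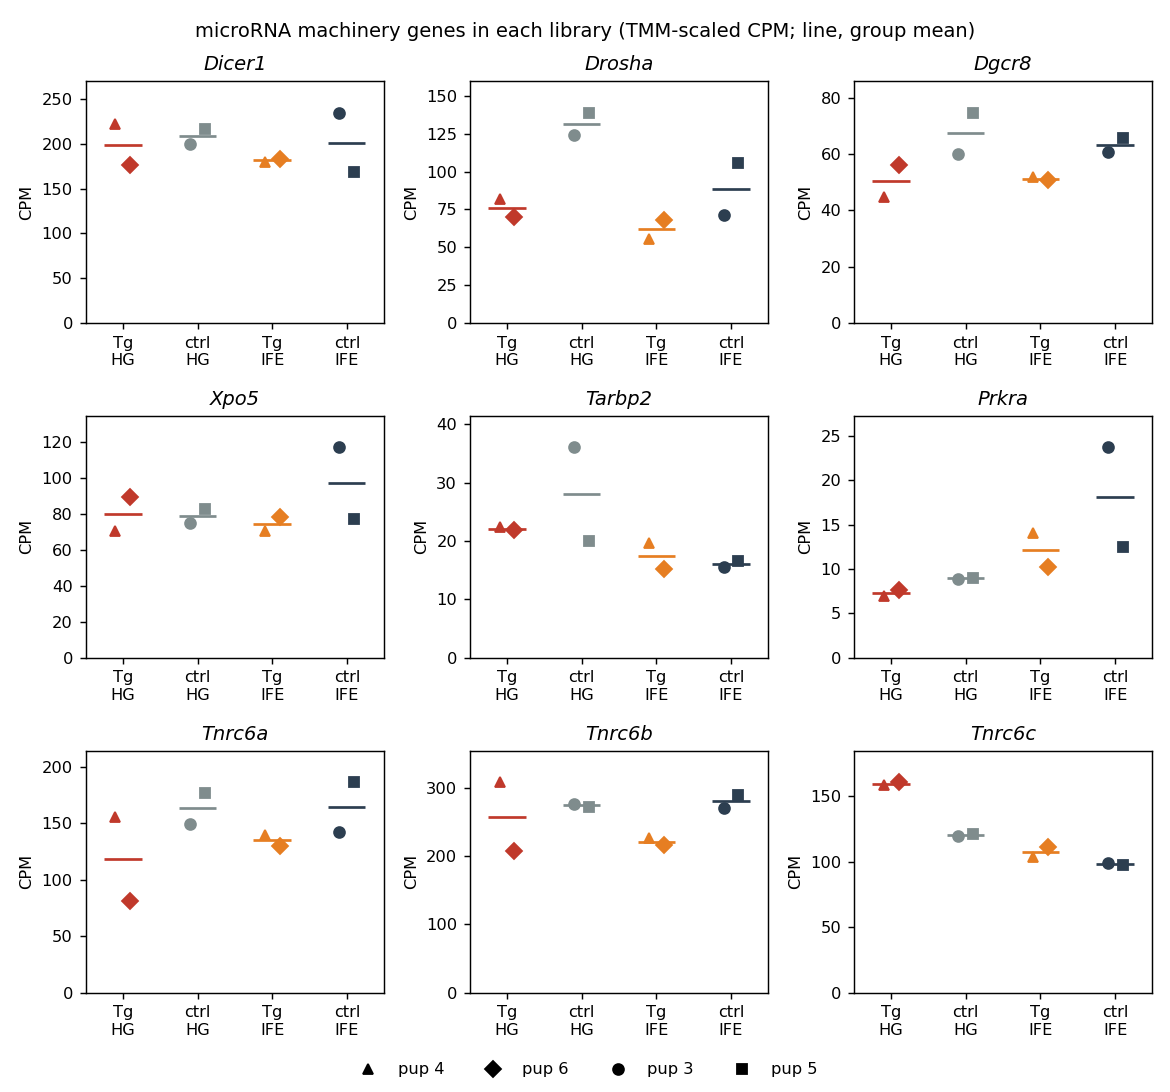
Level of each of the 9 genes in CPM (TMM-scaled, vertical axis) in the 8 libraries, with transgenic groups drawn left of their controls in HG and in IFE; points are single pups, shaped by pup, and lines are group means. Drosha is lower in both transgenic HG libraries (70.0 and 81.8 CPM) than in either control (125 and 139 CPM), while Dicer1 overlaps between the groups.

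The range of effect sizes that these libraries allow differed by gene. The 95% interval of the fold change lay wholly inside a change of 2-fold in either direction for 5 of the 9 genes in HG (Dgcr8, Dicer1, Xpo5, Tnrc6b and Tnrc6c) and for 7 of 9 in IFE (all but Drosha and Prkra). For the others the interval reached past a 2-fold change on at least 1 side. These intervals are per gene and are not adjusted for the number of genes.

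**Figure D2:**
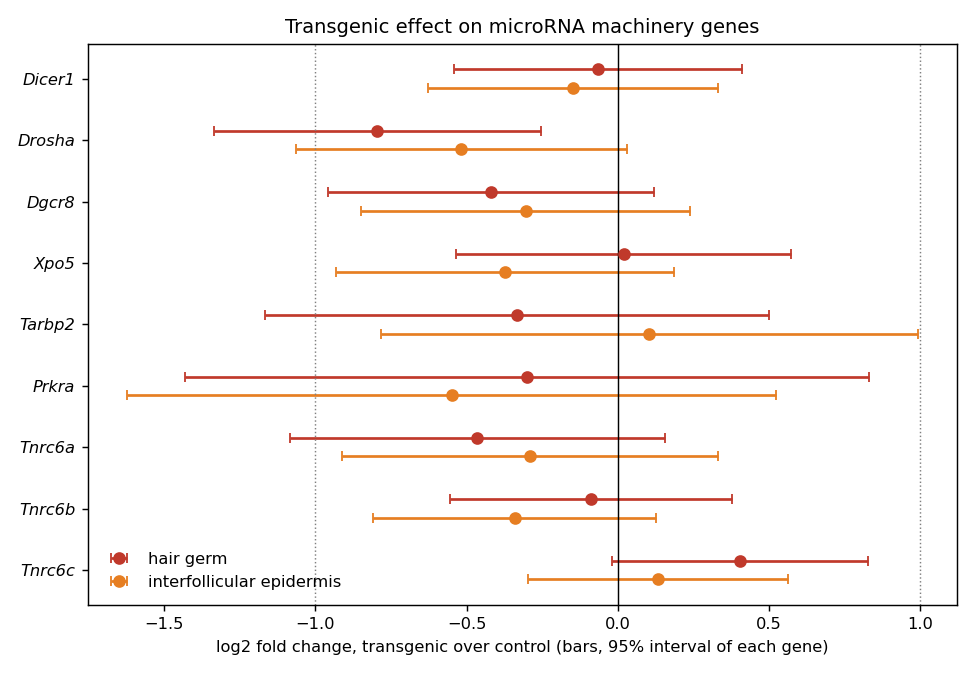
Log2 fold change of transgenic over control (horizontal axis) for each of the 9 genes in HG and in IFE, with 95% intervals from the edgeR fit; the solid line marks 0 and the dotted lines a 2-fold change. Drosha in HG, at -0.80, is the only one whose interval leaves out 0.

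Drosha (chr15:12824815-12935291, plus strand) encodes the nuclease that opens the pathway by cutting primary transcripts. Its level was 81.8 and 70.0 CPM in transgenic HG (75.9 ± 8.29, SD, n = 2), against 125 and 139 CPM in control HG (132 ± 10.3, SD, n = 2). Both transgenic libraries were lower than both controls, and the log2 fold change was -0.80 (SE 0.25, 95% interval -1.34 to -0.25, edgeR adjusted p = 0.140). In IFE it had 55.7 and 68.1 CPM in transgenic pups, against 71.2 and 106 CPM in controls, with a log2 fold change of -0.52 (SE 0.25, edgeR adjusted p = 0.328). The groups again did not overlap, although transgenic pup 6 and control pup 3 lay close together. Over the alternatives the HG value ran from -0.95 to -0.71 with adjusted p from 0.0848 to 0.521, and the IFE value from -0.70 to -0.19, so the direction held in each while no alternative gave a call. The difference between the HG and IFE effects was -0.28 (SE 0.35, edgeR adjusted p = 0.947).

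Dgcr8 (chr16:18253948-18289246, minus strand) encodes the double-stranded RNA-binding partner that positions Drosha on the hairpin. It had 44.8 and 56.2 CPM in transgenic HG, against 60.0 and 74.8 CPM in control HG (log2 fold change -0.42, SE 0.25, edgeR adjusted p = 0.417). The IFE libraries gave 51.9 and 50.8 CPM in transgenic pups, against 60.9 and 65.6 CPM in controls (-0.30, SE 0.25, adjusted p = 0.654). Dgcr8 was the 1 gene of the 9 that was lower in all 4 transgenic libraries than in all 4 controls, a pattern held by 4.77% of tested genes, and 10.8% did not overlap in either direction. It is also the gene of the 9 with the largest exon overlap: 11.7% of its exon bases are shared with the antisense gene Trmt2a and with Mir1306, and whether the reads of these stranded libraries were counted by strand is not stated in the labels. Reads of Dgcr8 and of those genes may not be told apart there.

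Within each population, 4 of the 9 genes did not overlap between transgenic and control HG libraries, 3 lower (Drosha, Dgcr8 and Prkra) and 1 higher (Tnrc6c). In IFE there were 5, of which 4 were lower (Drosha, Dgcr8, Tnrc6a and Tnrc6b) and 1 higher (Tnrc6c). With 2 libraries a side, 39.3% of all genes did not overlap in HG (22.4% higher, 16.9% lower) and 52.9% in IFE (27.9% higher, 25% lower). The totals of 4 and 5 of 9 lie near these shares, with more of the 9 lower and fewer higher than among all genes. No such share was taken over the 7365 genes whose log2 CPM averaged 4 or more. Of those, 56.6% in HG and 62.1% in IFE had fitted values below 0.

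Xpo5 (chr17:46202782-46243598, plus strand) encodes exportin 5, which takes hairpins to the cytoplasm. Its level was 70.5 and 89.2 CPM in transgenic HG, against 74.8 and 82.5 CPM in control HG. The transgenic libraries enclosed the controls, and the log2 fold change was 0.02 (SE 0.25, 95% interval -0.53 to 0.57, edgeR adjusted p = 0.985). Its level in IFE was 70.7 and 78.1 CPM in transgenic pups, against 117 and 77.1 CPM in controls (-0.37, SE 0.26, edgeR adjusted p = 0.558). Control pup 3, rich in Rn45s, was the high library, and without it the value was 0.02.

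Dicer1 (chr12:104687742-104751952, minus strand) encodes the nuclease that turns the hairpin into the microRNA duplex. It had 222 and 176 CPM in transgenic HG (199 ± 32.2, SD, n = 2), against 200.1 and 217 CPM in control HG (208 ± 11.8, SD, n = 2). The log2 fold change was -0.07 (SE 0.22, 95% interval -0.54 to 0.41, edgeR adjusted p = 0.919). In IFE it had 179.8 and 184 CPM in transgenic pups, against 235 and 168 CPM in controls (-0.15, SE 0.22, 95% interval -0.63 to 0.33, adjusted p = 0.858). Transgenic and control libraries overlapped in both populations. The sign turned in HG without transgenic pup 6 (0.07) and in IFE without control pup 3 (0.17).

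The double-stranded RNA-binding partners of Dicer1 rested on few reads, 89 to 410 counts per library for Tarbp2 and 63 to 147 for Prkra. Tarbp2 (chr15:102518192-102523676, plus strand), which helps Dicer1 place the duplex on an Argonaute, had 22.4 and 21.8 CPM in transgenic HG, against 36.0 and 19.9 CPM in control HG. The IFE values were 19.7 and 15.2 CPM in transgenic pups, against 15.5 and 16.6 CPM in controls. Neither comparison separated the groups (log2 fold change -0.33 and 0.10, edgeR adjusted p = 0.702 and 0.961), and the HG value was 0.10 without control pup 3. Prkra (chr2:76629898-76648015, minus strand), better known as PACT, also activates the kinase PKR. It had 6.95 and 7.63 CPM in transgenic HG, against 8.87 and 9.04 CPM in control HG, and 14.0 and 10.3 CPM in transgenic IFE, against 23.7 and 12.5 CPM in control IFE. The log2 fold changes were -0.30 (SE 0.52) and -0.55 (SE 0.49), with edgeR adjusted p = 0.819 and 0.694. Without control IFE pup 3, rich in Rn45s, the IFE value of Prkra was -0.0021. Its intervals were the widest of the 9 genes in both contrasts.

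The Tnrc6 genes encode the GW182 proteins, which bind Argonautes at one end and the CCR4-NOT and PAN2-PAN3 deadenylases at the other. Tnrc6a (chr7:123123885-123195296, plus strand) had 156 and 80.8 CPM in transgenic HG, against 149.7 and 177 CPM in control HG. The spread came from transgenic pup 6: the log2 fold change was -0.46 (SE 0.28, edgeR adjusted p = 0.437) with both pups, -0.10 without pup 6 and -1.06 without pup 4. IFE levels were 139.5 and 130.4 CPM in transgenic pups, against 143 and 186 CPM in controls (-0.29, SE 0.28, adjusted p = 0.730).

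Tnrc6b (chr15:80711313-80941085, plus strand) has the longest 3′ UTR of the 9 and all but 2 of their seed matches. It had 308 and 208 CPM in transgenic HG, against 277 and 272 CPM in control HG (log2 fold change -0.09, SE 0.21, edgeR adjusted p = 0.880). Among IFE libraries it had 226 and 217 CPM in transgenic pups, against 271 and 290 CPM in controls (-0.34, SE 0.22, adjusted p = 0.503). The HG groups overlapped and the IFE groups did not.

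Tnrc6c (chr11:117654289-117763439, plus strand) was the member of the trio that ran the other way. Its level was 158 and 160.4 CPM in transgenic HG (159 ± 1.60, SD, n = 2), against 119.7 and 121 CPM in control HG (120.4 ± 0.887, SD, n = 2). Both transgenic libraries were higher, with a log2 fold change of 0.40 (SE 0.19, 95% interval -0.02 to 0.83, edgeR adjusted p = 0.318). In IFE it had 104 and 111 CPM in transgenic pups, against 99.3 and 97.1 CPM in controls (0.13, SE 0.20, adjusted p = 0.855). The libraries were again apart, by a smaller distance, and the difference of the HG and IFE effects was 0.27 (SE 0.28, edgeR adjusted p = 0.918).

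Read as shares of the summed Tnrc6 counts, Tnrc6c made up 25.4% and 35.7% in transgenic HG, against 21.9% and 21.2% in control HG, and 22.1% and 24.3% in transgenic IFE, against 19.3% and 16.9% in control IFE. Each transgenic library held a larger share than either control of its population, and in both populations pup 6, with the higher load, held more than pup 4. In HG the level of Tnrc6c itself was near equal in pups 4 and 6 (158 and 160.4 CPM). Tnrc6a (156 and 80.8 CPM) and Tnrc6b (308 and 208 CPM) were lower there in pup 6. In IFE Tnrc6c had 104 and 111 CPM in these pups. Tnrc6a took 25.03% and 17.998% in transgenic HG, against 27.4% and 31.1% in control HG, and 29.7% and 28.4% in transgenic IFE, against 27.8% and 32.5% in control IFE. Tnrc6b stayed between 46.3% and 52.8% in all 8 libraries. Per kilobase of exon the mean share of Tnrc6c was 38.99% in transgenic HG, 27.72% in control HG, 29.58% in transgenic IFE and 23.68% in control IFE. Shares add up to a whole, so that of Tnrc6c also moves when the others do, and no test was made on them.

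**Figure D3:**
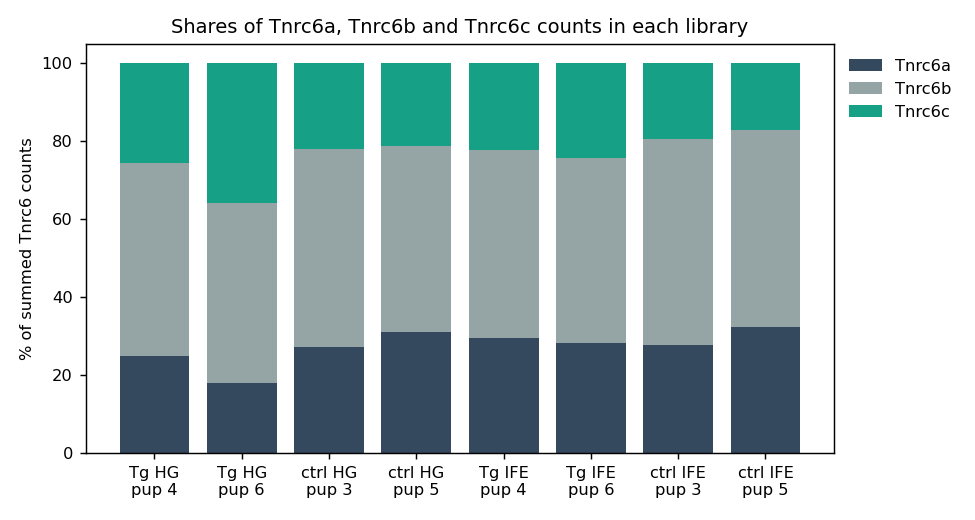
Share of the summed Tnrc6 counts (percent, vertical axis) taken by Tnrc6a, Tnrc6b and Tnrc6c in each of the 8 libraries, transgenic left of control within HG and IFE. The Tnrc6c share is 22.1% to 35.7% in transgenic libraries and 16.9% to 21.9% in controls, the highest in transgenic HG pup 6.

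Against the transgene load itself the data hold only a pair of transgenic pups per population. Of the 9 genes, 5 were lower in pup 6 than in pup 4 in HG and 5 in IFE, and 3 were lower in both. The 9 genes thus had no common direction between the lower and the higher load. Load and genotype cannot be told apart across the 8 libraries, since control libraries all lie near 0.

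**Figure D4:**
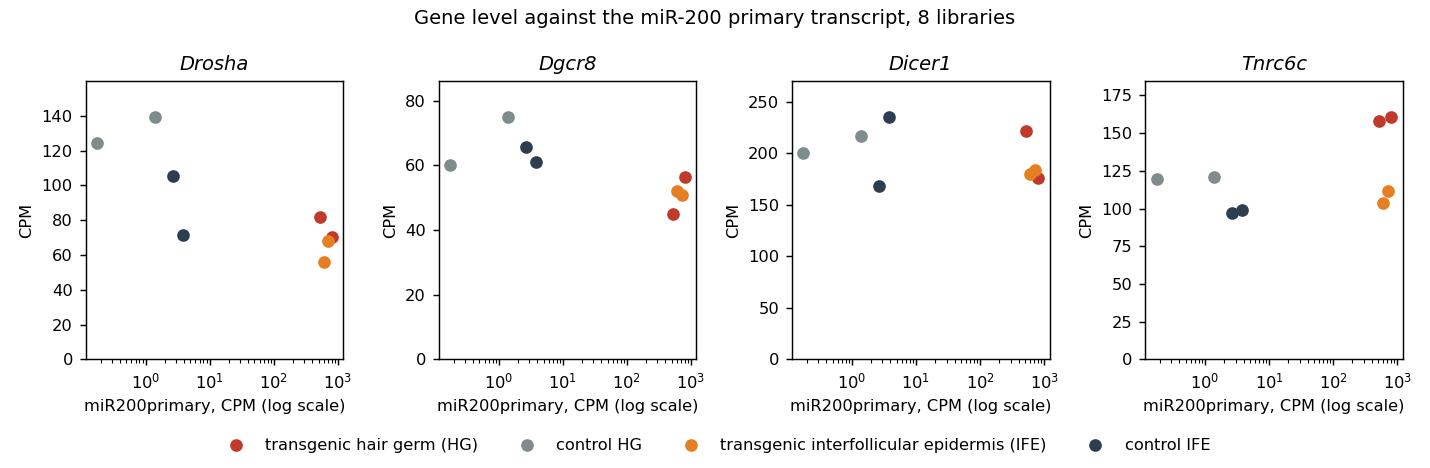
CPM of Drosha, Dgcr8, Dicer1 and Tnrc6c (vertical axis, 1 panel each) against CPM of miR200primary (horizontal axis, log scale), 1 point per library, coloured by group. The transgenic libraries lie between 526 and 797 CPM of miR200primary and the control ones between 0.176 and 3.83 CPM, with no library in between.

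Between the populations none of the 9 genes was called in control pups (background 0.00705%, 1 gene) or in transgenic pups (4.64%, 658 genes, 0.882% higher and 3.76% lower in HG), nor was any effect of the transgene called as different between populations (0.134%, 19 genes, all members at an edgeR adjusted p of 0.890 or more). At an unadjusted p under 0.05 there was 1 of 9 in transgenic pups, Tnrc6c, against 18.5% of all genes, and 1 of 9 in control pups, Drosha, against 8.46%. For the difference there was 0 of 9, against 8.09%. Neither DESeq2 nor limma-voom called any. In control pups Drosha was 125 and 139 CPM in HG, against 71.2 and 106 CPM in IFE (log2 fold change 0.57, SE 0.25, edgeR adjusted p = 0.580). Prkra ran lower in HG (-0.97, SE 0.49, adjusted p = 0.619) and Tarbp2 higher (0.79, SE 0.39, adjusted p = 0.611). Over the alternatives Prkra ran from -1.40 to -0.45 and Tarbp2 from 0.35 to 1.16. The libraries of 4 genes did not overlap, Drosha, Tarbp2 and Tnrc6c higher and Prkra lower in HG, against 33.4% of all genes (14.2% higher, 19.2% lower). In transgenic pups the same 4 genes were apart in the same directions, against 55.2% of all genes (26.4% higher, 28.9% lower). There Tnrc6c had the smallest p, with 158 and 160.4 CPM in HG, against 104 and 111 CPM in IFE (0.56, SE 0.20, 95% interval 0.14 to 0.99, edgeR adjusted p = 0.137). The pups are the same on both sides, and with the pup as a block no member was called either. Library size as the only scaling moved the all-gene median to 0.26 in control and 0.20 in transgenic pups.

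Between genes, levels were compared as CPM per kilobase of annotated exon. The length was that of all annotated exons of a gene merged, such as 4549 bases for Tarbp2 and 23677 for Tnrc6b. Exon bases that the transcripts of these cells leave out lower a gene's level, so the order of genes depends on this length. No other length was tried. Drosha stood highest in control HG at 22.2 ± 1.73 (SD, n = 2), apart from the next, Tnrc6a at 12.9 ± 1.53. In transgenic HG Drosha was at 12.8 ± 1.40, overlapping with Tnrc6c, Dicer1, Xpo5, Tnrc6b and Tnrc6a in a run of neighbours down to 9.31 ± 4.17. In transgenic IFE the order led with Xpo5 at 10.8 ± 0.769 and Dicer1 at 10.8 ± 0.159, and in control IFE with Drosha at 14.9 ± 4.09, in each case overlapping with the next. Dgcr8 held the seventh place in all 4 groups, at 6.56 in transgenic HG, 8.76 in control HG, 6.67 in transgenic IFE and 8.22 in control IFE. The lowest mean was that of Prkra in HG (3.597 transgenic, 4.42 control), where it overlapped with Tarbp2 in control pups, and that of Tarbp2 in IFE (3.83 transgenic, 3.52 control). The partner Dgcr8 thus stood below Drosha per kilobase in every group, by the most in control HG.

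The rest of the pathway was taken from 67 other genes, of which 64 passed the filter. In HG 0 were called higher and 1 lower, and in IFE 1 higher and 0 lower, against the same backgrounds of 0.952% and 6.34%. The fitted value was below 0 for 49 of 64 in HG (median log2 fold change -0.20) and for 51 of 64 in IFE (median -0.22), beside the all-gene medians given above. Over the 7365 genes whose log2 CPM averaged 4 or more, the medians were -0.07 and -0.13, with 56.6% and 62.1% below 0. The HG median was -0.31 without control pup 3 and -0.13 without control pup 5. With library size as the only scaling 40 of 64 lay below 0 in IFE. Of the 10 other microprocessor cofactors 8 lay below 0 in HG and 9 in IFE, and of the 29 other silencing effectors 22 in HG and 25 in IFE. Among the cofactors Hnrnpa1 had only 2 to 36 counts per library and gave their lowest IFE value (-1.72). The 8 chaperone and loading genes were below 0 in 8 cases in HG and 6 in IFE, and the 2 export genes in both. The 11 hairpin modifiers had medians of -0.01 in HG and -0.08 in IFE. Across all 8 libraries 12 of the 64 were lower in every transgenic than in every control library and 2 were higher, against 4.77% and 6.05% of all genes. These shares cover all 14176 genes tested, and none was taken over the 7365 of higher level alone.

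**Figure D5:**
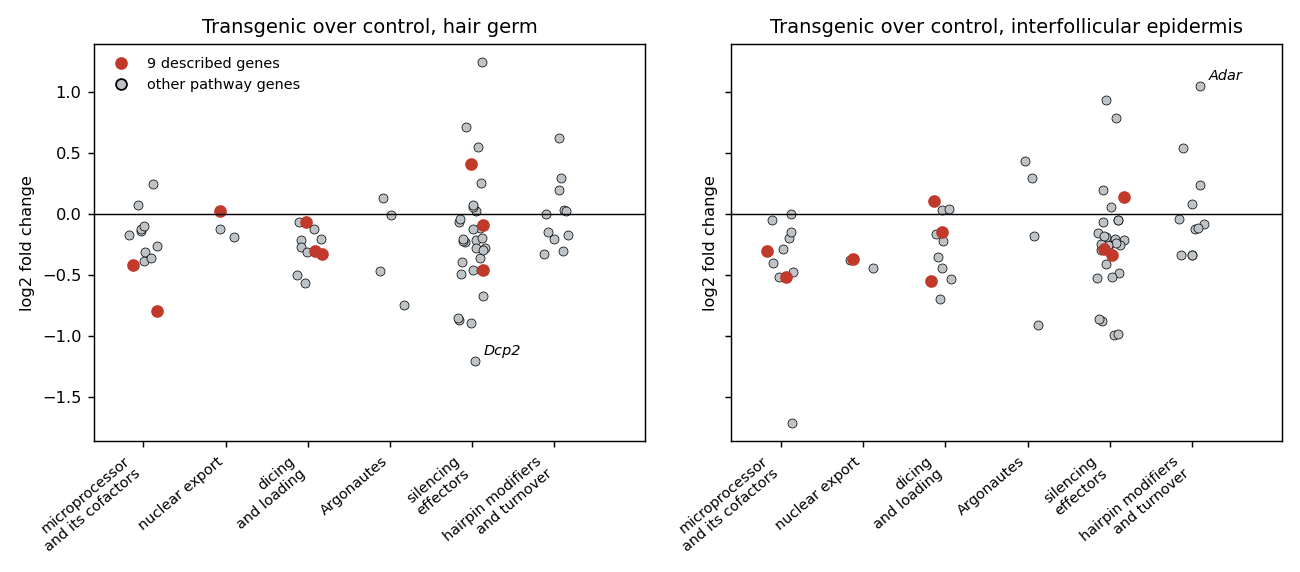
Log2 fold change of transgenic over control (vertical axis) for the 9 genes and for 64 other genes of the pathway, grouped by step (horizontal axis), in HG and in IFE; the line at 0 marks no difference. Most points lie below 0 in both panels, and Dcp2 in HG (-1.20) and Adar in IFE (1.05) are the ones past the threshold.

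The gene that fell was Dcp2, the catalytic subunit of the decapping enzyme that removes the cap of deadenylated messages. It had 51.8 and 47.5 CPM in transgenic HG, against 123 and 106 CPM in control HG (log2 fold change -1.20, SE 0.23, edgeR adjusted p = 0.0403). IFE gave 46.7 and 61.3 CPM in transgenic pups, against 94.0 and 103 CPM in controls (-0.86, SE 0.23, adjusted p = 0.0506). The HG call was kept in 4 of 13 alternatives, with adjusted p from 0.0007 to 0.415, and was lost without control pup 3, transgenic pup 4 or transgenic pup 6. The gene that rose was Adar, which edits adenosines in double-stranded RNA. It had 120 and 107 CPM in transgenic IFE, against 54.9 and 54.8 CPM in control IFE (1.05, SE 0.24, adjusted p = 0.0241). In HG it had 87.9 and 107 CPM in transgenic pups, against 73.4 and 53.2 CPM in controls (0.62, adjusted p = 0.211), and the difference of effects was -0.42 (adjusted p = 0.863). The IFE call was kept in 7 of 13 alternatives and lost without any single IFE library. All 15 immune markers had fitted values above 0 in both contrasts, with 3 called higher in HG and 15 in IFE. Their part in the Adar values was not tested.

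The 4 Argonautes, the proteins that hold the microRNA, are listed in the files under their older Eif2c symbols, and none was called. Ago4 (Eif2c4) had 34.9 and 35.6 CPM in transgenic HG, against 55.2 and 62.9 CPM in control HG (log2 fold change -0.75, SE 0.27, edgeR adjusted p = 0.189). Its values in IFE were 49.1 and 35.2 CPM in transgenic pups, against 89.3 and 68.9 CPM in controls (-0.91, SE 0.27, adjusted p = 0.0735). It was lower in all 4 transgenic libraries than in all 4 controls, as were 4.77% of all genes. Ago2 (Eif2c2), the Argonaute that can cut its target, had 208 and 207 CPM in transgenic HG, against 179 and 201 CPM in control HG, and 251 and 220 CPM in transgenic IFE, against 191 and 193 CPM in control IFE. It was higher in all 4 transgenic libraries, as were 6.05% of all genes, by a small distance (0.13 and 0.29, edgeR adjusted p = 0.780 and 0.526). Ago1 (Eif2c1) had 226 and 192 CPM in transgenic HG, against 244 and 178 CPM in control HG, and 197 and 194 CPM in transgenic IFE, against 242 and 202 CPM in control IFE. Ago3 (Eif2c3) was the lowest per kilobase of exon, at a mean of 0.951 CPM in transgenic HG and 1.31 CPM in control HG. Unscaled for length it had 15.4 and 16.1 CPM in transgenic HG, against 20.03 and 23.5 CPM in control HG, and 29.9 and 24.8 CPM in transgenic IFE, against 24.2 and 16.8 CPM in control IFE. Ago3 thus ran lower in transgenic HG and higher in transgenic IFE, and that difference was not called (-0.90, SE 0.51, adjusted p = 0.737). The longest 3′ UTR of Ago2 held 3 CAGTATT and 2 CAGTGTT, those of Ago1 and Ago3 1 CAGTGTT each, and that of Ago4 neither.

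Among the 7179 genes whose log2 CPM averaged 4 or more, with predicted and clone-named genes left out, the 3 whose log2 CPM over the 8 libraries was most like that of Drosha were Pou2f1 (Pearson r = 0.983), Nasp (0.976) and Tmc7 (0.974). Nasp, a histone chaperone, had 99.0 and 104 CPM in transgenic HG, against 150.4 and 179 CPM in control HG, and 76.2 and 95.8 CPM in transgenic IFE, against 104 and 140.2 CPM in control IFE. The 3 most like Dicer1 were Rpa1 (0.951), Lss (0.928) and Itih5 (0.908). These values describe likeness over libraries that share pups and scaling, and were picked as the highest of many.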

How the data were processed

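Total RNA of 8 sorted libraries was made into SMARTer stranded low-input libraries after Trizol extraction, per the labels' protocols. The authors deposited raw counts of reads per gene symbol. TopHat, HTSeq and DESeq2 and the build mm10 (GRCm38) are named per the submitters' processing notes; versions and the strand setting of the counting are not given in these sources. A deposited matrix of normalised signal holds, for 23406 shared names, those counts over a library constant (to 0.01 reads), and was used only as that check, with 27 names unmatched.

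The 5 summary lines per file were left out; 23.4% to 42.4% of recorded reads were assigned to genes. Counts were scaled by TMM, filtered with filterByExpr and fitted as 4 group means over 8 libraries with edgeR 4.0.16 (glmQLFit, legacy set to FALSE; R 4.3.3). Contrasts were tested two-sided with glmQLFTest, with Benjamini-Hochberg adjustment over all 14176 genes and a threshold of 0.05. The fit had 4 residual degrees of freedom. The SE was taken as |log2 fold change| divided by √F, and 95% intervals use the fit's total degrees of freedom. Alternatives used DESeq2 1.42.0, limma 3.58.1, other scalings and left-out libraries. A count of 0 allows up to 3 counts, 0.199 to 0.522 CPM; such limits cover counting error only.

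Pups are separate animals per the labels, and each gave 1 library per population, so HG and IFE libraries pair by pup. Deviations from the group means of a pup's libraries correlated at 0.117 in the control and 0.0868 in the transgenic pups over all tested genes, and at 0.394 and 0.191 over the 7365 whose log2 CPM averaged 4 or more. Genotypes share no pup. The 9 genes, the pathway and marker lists and the tests were chosen with earlier results of these data known. The genes named are the 9, miR200primary, the Argonautes, other pathway genes past the threshold, and the 3 genes most like Drosha and Dicer1 among those that averaged 4 or more, without predicted and clone-named genes. Rn45s, Trmt2a, Mir1306, Gpnmb, Mitf and Hnrnpa1 were added after their values or positions were seen. Exon lengths and 3′ UTRs came from GENCODE M21.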

Additional observations from a re-analysis of the deposited data

How the results depend on the processing

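The count of called genes among the 9 was 0 in all 5 contrasts under every alternative run, which were 13 for transgenic against control, 14 for HG against IFE and 17 for the difference of effects. With the pup as a replicate block the value of miR200primary in transgenic HG against IFE was -0.023, and the block changed no call of a member, while over all genes it gave 7 calls in control HG against IFE, 1019 in transgenic HG against IFE and 86 for the difference. Over all genes the calls ran from 1 to 648 in transgenic against control HG (135 in the reported fit), 195 to 1277 in IFE (899), 0 to 152 in control HG against IFE (1), 0 to 1385 in transgenic HG against IFE (658) and 0 to 192 for the difference (19). Of the 64 other pathway genes DESeq2 called Cnot6 and Dcp2 lower in HG, and Ajuba, Cnot6 and Dcp2 lower and Adar higher in IFE. Small log2 values changed sign, and the cause was not tested. In transgenic against control HG, limma-voom gave Xpo5 -0.002 and Ago1 (Eif2c1) 0.015, and library size alone gave Ago1 0.009; in IFE, library size alone gave Dicer1 0.043, leaving out pup 4 gave Tarbp2 -0.019, and leaving out the 2 libraries rich in Rn45s gave Dicer1 0.148, Xpo5 0.041 and Tarbp2 -0.103. In control HG against IFE, library size alone gave Xpo5 0.054, Tnrc6a 0.288 and Tnrc6b 0.287, and without the Rn45s-rich libraries Xpo5 was 0.041. There Tnrc6a was 0.011 with RLE factors, 0.014 unfiltered, 0.012 with DESeq2, 0.017 with these groups' libraries only and 0.012 without pup 4. In transgenic HG against IFE, leaving out pup 4 gave Dicer1 -0.118, Drosha -0.019, Dgcr8 0.087 and Tnrc6b -0.120, and library size alone gave Dgcr8 0.167. There miR200primary was -0.005 with RLE, -0.040 unfiltered, -0.004 with DESeq2, -0.041 with voom and -0.136 without the Rn45s-rich libraries. For the difference of effects, Dicer1 was -0.087 with library size alone, -0.192 without pup 4 and -0.223 without the Rn45s-rich libraries, which also gave Xpo5 -0.041, Prkra -0.060 and Tnrc6a 0.028, and Tnrc6b was -0.113 without pup 4. Leaving out 1 library at a time gave these lowest and highest values. In transgenic against control HG: Dicer1 -0.279 to 0.067, Xpo5 -0.182 to 0.143, Tarbp2 -0.709 to 0.100, Tnrc6b -0.439 to 0.144, Ago1 -0.223 to 0.185 and Ago2 -0.003 to 0.212. In IFE: Dicer1 -0.365 to 0.175, Xpo5 -0.642 to 0.015, Tarbp2 -0.076 to 0.317 and Ago1 -0.303 to 0.014. In control HG against IFE: Dicer1 -0.176 to 0.340, Dgcr8 -0.078 to 0.281, Xpo5 -0.573 to 0.060, Tnrc6a -0.158 to 0.194 and Tnrc6b -0.047 to 0.018. In transgenic HG against IFE: Dicer1 -0.092 to 0.254, Dgcr8 -0.231 to 0.082, Xpo5 -0.113 to 0.211, Tnrc6a -0.787 to 0.173, Tnrc6b -0.139 to 0.444 and miR200primary -0.364 to 0.223. For the difference: Dicer1 -0.245 to 0.298, Dgcr8 -0.347 to 0.043, Xpo5 -0.004 to 0.659, Prkra -0.306 to 0.679, Tnrc6a -0.800 to 0.161 and Tnrc6b -0.132 to 0.451. Left-out fits with 1 library in a group assume that it varies like the others. Mean shares of the Tnrc6 counts per kilobase of exon were, for Tnrc6a, 27.81% in transgenic HG, 37.96% in control HG, 37.45% in transgenic IFE and 39.76% in control IFE; for Tnrc6b, 33.20%, 34.32%, 32.97% and 36.56%; and for Tnrc6c, 38.99%, 27.72%, 29.58% and 23.68% in that order, against 30.58%, 21.56%, 23.21% and 18.15% by counts. With 2 pups a group, control genotypes that differ and immune and melanocyte markers that move with genotype, a difference not called here does not show that levels are alike.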
